A study of Mus musculus with 2 samples.

Results

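Of 40119 H3K9me3 peaks called in mouse intestinal stem cells, 12739 were exactly 500 bp wide, the narrowest width in the list, lay on chromosomes 1 to 19 or X and held at most 10 control tags. These 500 bp peaks were chosen by their width and control tags alone. Tags are the caller's measure of reads in a peak, which the list gives in steps of 0.5. How the 0.5 steps arise is not given in the labels or headers, and the Poisson intervals treat a value as a count. The 26834 wider peaks on the same chromosomes with at most 10 control tags are the set they are compared with, called wider peaks from here on. Members and wider peaks come from the same library, so every value below describes that library.

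Chromatin was immunoprecipitated with an antibody against H3K9me3, and 1 ChIP library was set against 1 control library. Both came from GFP-high, CD24-low cells sorted from 12 pooled mice that carried Lgr5-EGFP-IRES-creERT2 and setdb1fl/fl, strain C57BL/6, 8 weeks after birth. Lgr5 drives both GFP and the inducible Cre, so sorting takes the crypt cells in which Lgr5 is on. The control is called input in its title and IgG in its antibody label, it is seen only through its tags in the peaks, and the labels leave unsaid whether the mice had lost Setdb1. Each group has a single library without replicates, so no comparison was tested and none has a p-value. Intervals are exact Poisson for tags and exact Clopper-Pearson for shares, at 95%, and cover counting error alone. A histone mark gives no RNA level, so the labelled cell type could not be checked against its markers.

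H3K9me3 is the trimethylation of lysine on histone H3 that HP1 proteins bind, and it marks compacted, silenced chromatin. Setdb1 is one of the enzymes that place it, recruited largely through Trim28 and KRAB zinc finger proteins to retroelements and to imprinted genes, and Suv39h1 and Suv39h2 place it at pericentromeric repeats. The mark usually forms broad domains. In the intestinal crypt, Lgr5-positive cells renew the epithelium.

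Printed first are promoters whose start lay inside a 500 bp peak, since the share of 500 bp peaks near gene starts is described further on. They are 8 of the 10 genes, predicted genes left out, with most ChIP tags in a 500 bp peak over their start. Each is the RefSeq sequence of GRCm38.p6 from 250 bases before to 50 bases after the gene start, written along the gene's own strand with every CG dinucleotide in capitals. On the plus strand, the windows are chr7:107209195-107209494 for Rbmxl2, chr13:119487836-119488135 for Tmem267, chr4:99656049-99656348 for Foxd3, chr16:65814939-65815238 for Vgll3, chr6:54429436-54429735 for Wipf3 and chr17:8284204-8284503 for Mpc1. On the minus strand, they are chr10:80843990-80844289 for Lingo3 and chr2:69585980-69586279 for Lrp2.
Rbmxl2 promoter: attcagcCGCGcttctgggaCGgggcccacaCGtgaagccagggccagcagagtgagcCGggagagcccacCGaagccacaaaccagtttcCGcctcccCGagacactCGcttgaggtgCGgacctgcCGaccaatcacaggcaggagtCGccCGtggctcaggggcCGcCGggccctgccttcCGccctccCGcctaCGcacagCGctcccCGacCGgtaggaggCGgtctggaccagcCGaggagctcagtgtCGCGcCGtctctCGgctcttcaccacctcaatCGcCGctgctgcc
Tmem267 promoter: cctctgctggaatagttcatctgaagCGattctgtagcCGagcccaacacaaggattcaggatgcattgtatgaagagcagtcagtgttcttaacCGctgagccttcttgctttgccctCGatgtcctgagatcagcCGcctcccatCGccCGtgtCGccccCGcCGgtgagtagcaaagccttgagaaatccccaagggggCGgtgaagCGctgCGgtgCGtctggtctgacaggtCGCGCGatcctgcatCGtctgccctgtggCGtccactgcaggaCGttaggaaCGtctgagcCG
Foxd3 promoter: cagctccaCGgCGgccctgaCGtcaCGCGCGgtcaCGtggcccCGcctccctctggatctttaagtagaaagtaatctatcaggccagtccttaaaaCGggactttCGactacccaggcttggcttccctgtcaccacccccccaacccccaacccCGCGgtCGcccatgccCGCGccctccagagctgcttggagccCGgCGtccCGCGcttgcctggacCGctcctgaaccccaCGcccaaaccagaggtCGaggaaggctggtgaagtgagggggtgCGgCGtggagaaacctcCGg
Vgll3 promoter: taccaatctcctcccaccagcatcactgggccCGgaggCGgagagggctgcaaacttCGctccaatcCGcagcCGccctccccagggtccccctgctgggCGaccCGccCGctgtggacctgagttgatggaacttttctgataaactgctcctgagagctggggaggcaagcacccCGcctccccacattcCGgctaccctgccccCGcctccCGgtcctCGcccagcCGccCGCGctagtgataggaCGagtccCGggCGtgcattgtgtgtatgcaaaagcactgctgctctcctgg
Wipf3 promoter: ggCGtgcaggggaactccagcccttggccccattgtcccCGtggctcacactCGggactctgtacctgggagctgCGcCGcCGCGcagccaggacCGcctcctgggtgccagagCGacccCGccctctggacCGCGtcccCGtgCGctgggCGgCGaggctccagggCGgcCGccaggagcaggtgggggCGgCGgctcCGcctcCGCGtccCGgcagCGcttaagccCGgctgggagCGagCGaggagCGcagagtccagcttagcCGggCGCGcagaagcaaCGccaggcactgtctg
Lingo3 promoter: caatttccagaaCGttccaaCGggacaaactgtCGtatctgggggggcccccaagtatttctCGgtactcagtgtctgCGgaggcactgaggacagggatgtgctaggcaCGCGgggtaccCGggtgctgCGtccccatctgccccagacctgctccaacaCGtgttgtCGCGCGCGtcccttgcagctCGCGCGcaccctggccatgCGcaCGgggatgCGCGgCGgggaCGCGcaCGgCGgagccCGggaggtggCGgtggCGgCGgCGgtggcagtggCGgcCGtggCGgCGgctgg
Lrp2 promoter: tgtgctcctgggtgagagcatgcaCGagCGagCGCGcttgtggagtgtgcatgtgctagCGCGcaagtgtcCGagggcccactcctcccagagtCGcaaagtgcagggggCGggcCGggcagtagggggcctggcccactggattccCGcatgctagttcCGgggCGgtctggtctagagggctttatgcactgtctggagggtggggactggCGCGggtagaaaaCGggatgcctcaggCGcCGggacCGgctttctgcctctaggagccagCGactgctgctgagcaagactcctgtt
Mpc1 promoter: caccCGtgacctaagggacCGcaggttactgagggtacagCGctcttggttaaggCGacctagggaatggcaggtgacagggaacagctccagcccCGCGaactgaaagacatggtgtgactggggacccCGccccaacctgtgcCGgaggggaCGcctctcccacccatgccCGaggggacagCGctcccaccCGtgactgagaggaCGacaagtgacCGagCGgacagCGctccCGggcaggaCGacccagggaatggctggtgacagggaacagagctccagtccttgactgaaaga
The windows of Rbmxl2, a testis-expressed RNA-binding protein gene, Tmem267 and Foxd3, a neural crest transcription factor gene, lay wholly inside their peaks. Those of Mpc1, a subunit of the mitochondrial pyruvate carrier, Lingo3 and Lrp2, the endocytic receptor megalin, had 280, 252 and 243 of their bases inside, and those of Wipf3 and Vgll3 had 89 and 86. The Lingo3 window held 35 CG dinucleotides, the most of the 8, and the Mpc1 window held 18, the fewest.

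The 500 bp peaks were shallow. Their median was 10 ChIP tags (quartiles 9 and 11), and a count of 10 has a Poisson interval of 4.80 to 18.4. The lowest count, 9 tags, was held by 3538 of them (27.8%), and 85.6% held fewer than 12 tags. The 95th percentile was 14.5 tags, the 99th was 18, and 61 peaks (0.479%) held more than 20. Wider peaks had a median of 22 tags (quartiles 16 and 33.5), and 2.17% of them held fewer than 12. Per length the sets lay closer, at a median of 20 tags per kb in 500 bp peaks and 23.5 tags per kb in wider peaks. The 500 bp peaks made up 31.9% of all peaks on these chromosomes, 17.4% of the base pairs covered (6.37 Mb) and 12.5% of the tags in peaks.

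**Figure D1:**
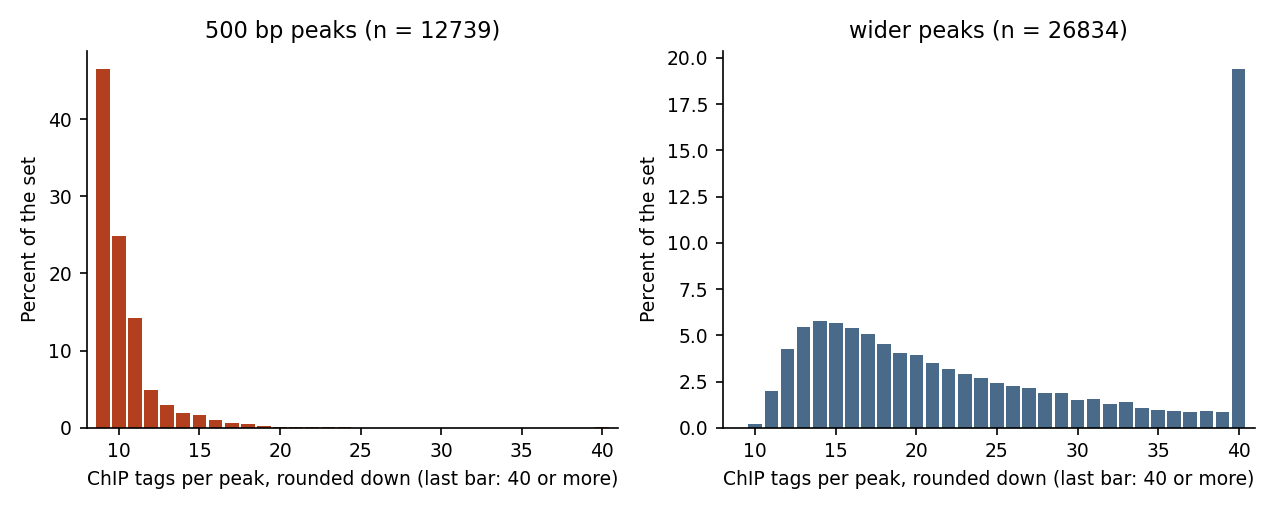
Distribution of ChIP tags per peak in 500 bp peaks (left) and wider peaks (right), as percent of each set per whole tag count, with 40 or more tags in the last bar and separate vertical scales. The 500 bp peaks crowd at the lowest counts, with 85.6% under 12 tags, against 2.17% of wider peaks.

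Control tags, by which the members were chosen, stood at their lowest listed value of 0.5 in 71.3% of 500 bp peaks and in 30.1% of wider peaks. These values are per peak and not per kb, and the median width of wider peaks was 905 bp. The median of the authors' fold over control was 12.32 in 500 bp peaks (4.01 to 22.58) and 12.66 in wider peaks. At the control floor that fold is set by the ChIP tags alone. The list holds no fold under 4. Among members the lowest tag count was 9 at 0.5 control tag, 10.5 at 1, 13.5 at 1.5, 15 at 2 and 61 at 10. The lowest fold at the same control values was 12.32, 7.18, 6.16, 5.13 and 4.17. At 0.5 to 2 control tags the lowest fold thus stood above 4. What sets these minima is not given in the labels or headers. They describe the selection and are no finding. The caller's score lay within 1 of the tag count in 95.4% of 500 bp peaks and in 3.39% of wider peaks.

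The edges of the rule are as follows. Just inside the control limit lay chr8:20537952-20538452, with 61 ChIP tags and 10 control tags. Just outside lay chrX:170010030-170010530, with 76 ChIP tags and 10.5 control tags, and 10 peaks of 500 bp in all stood over the limit, at 76 to 3165 ChIP tags. On the width side, the narrowest wider peak measured 596 bp and held 95.5 tags, and the next measured 625 bp and held 13.

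The members with most tags had high control too. The 15 with at least 30 tags held 5 to 10 control tags, with folds of 4.04 to 4.39. Of these, 7 lay in one stretch of chromosome 8 between 19.6 and 20.9 Mb, which held 17 of the 500 bp peaks and 34 wider peaks. Its 6 protein-coding genes were 5 with predicted or clone-based symbols and Defb33, a beta-defensin gene. Another 2 lay on chromosome 5 between 14.8 and 15.6 Mb, where Pclo, a presynaptic scaffold gene, and Speer4e stand beside predicted genes. After chr8:20537952-20538452, whose nearest protein-coding gene was Gm40469 at 10.9 kb, came chr5:14921425-14921925 with 56 tags, 6.54 kb from Gm9758. The next were chr8:123600573-123601073 with 54.5 tags, 52.9 kb from Rhou, and chr8:19912366-19912866 with 52 tags inside 9530057J20Rik. The fifth was chr6:47766098-47766598 with 50.5 tags, 27.8 kb from Gm40363. All 5 had a fold near the lower limit of the list, 4.17 to 4.39. The peaks with the highest fold were others. The peak at chr2:49393294-49393794 had a fold of 22.58 from 16.5 ChIP tags and 0.5 control tag, 57.0 kb from Epc2, and chr15:30251435-30251935 in Ctnnd2, a neuronal catenin gene, had 21.9 from 16 tags.

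The 500 bp peaks were found on every chromosome, at 4.84 per Mb, against 10.2 per Mb for wider peaks. Lengths run from the first base of a chromosome to the end of its last peak, assembly gaps included. Of peaks within the control limit, 32.2% were 500 bp wide (31.7 to 32.7%). Chromosome 11 had the highest share, 37.9% (35.9 to 39.8%), and the highest density, 7.49 per Mb. Chromosomes 19 and 15 followed at 37.3% (34.2 to 40.6%) and 35.6% (33.3 to 37.9%), and their intervals overlapped that of chromosome 11. The X chromosome had the lowest share, 24.2% (22.3 to 26.1%), and the lowest density, 2.79 per Mb. Chromosome 3 was next lowest in share, at 28.2% (26.2 to 30.2%), and its interval began just above the end of that of X. Median tags per 500 bp peak ran from 9.5 to 10.5 over the 20 chromosomes, within the narrow range in which most 500 bp peaks lie, and the highest count on a chromosome ran from 18 to 61.

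Chromosomes with more protein-coding genes per Mb had a larger share of 500 bp peaks. Over the 20 chromosomes, which share one library, Pearson's r between that share and protein-coding genes per Mb was 0.67 and Spearman's rho was 0.72. The density of 500 bp peaks followed that of wider peaks, with r = 0.89. The same was seen in 1 Mb windows. In the 329 windows without a protein-coding gene, 22.2% of peaks were 500 bp wide (20.7 to 23.8%). The share was 25.2% with 1 to 2 genes, 30.01% with 3 to 5, 33.6% with 6 to 10, 36.9% (35.9 to 37.9%) with 11 to 20 and 34.9% (33.8 to 35.9%) with 21 to 67. The mean number of both kinds of peak rose with gene number over these bins. From windows with none to those with 21 to 67 genes, it ran from 1.94 to 11.8 for 500 bp peaks and from 6.79 to 22.0 for wider peaks. Windows were laid from the first base of each chromosome to its last peak, and assembly gaps were not left out. Gaps add windows without genes or peaks, and their part in the lowest means was not tested.

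**Figure D2:**
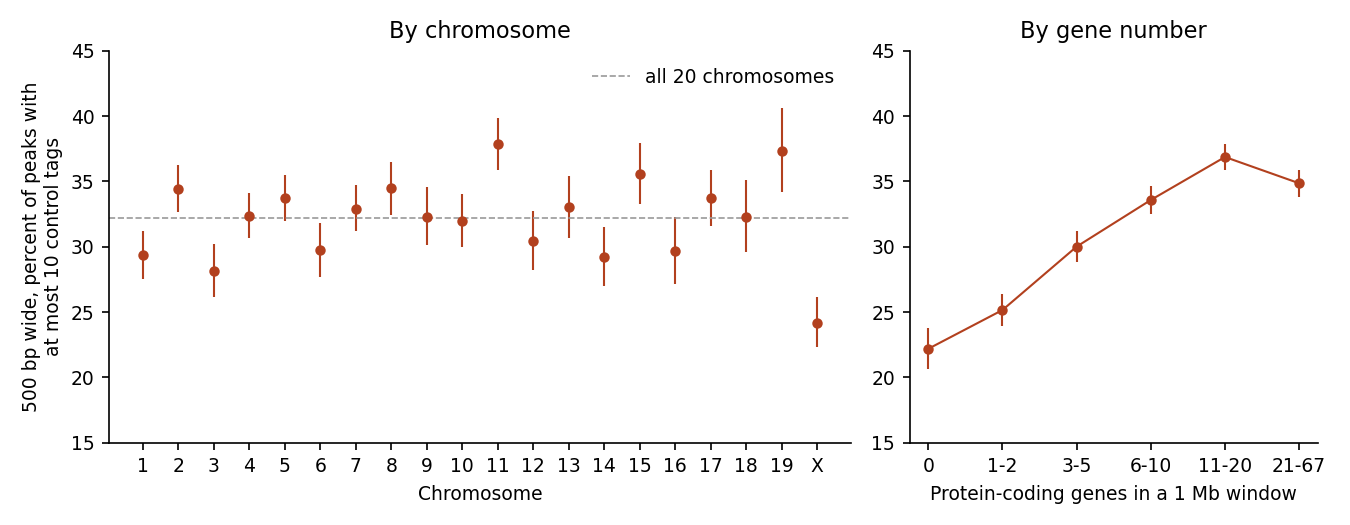
Share of peaks that are 500 bp wide among peaks with at most 10 control tags, by chromosome (left) and by the number of protein-coding genes in a 1 Mb window (right), with exact 95% intervals as bars and a vertical axis that starts at 15%. Chromosome 11 is highest at 37.9% and X lowest at 24.2%, and windows without genes stand at 22.2%.

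Of 2639 windows of 1 Mb, assembly gaps included, 238 held no 500 bp peak, and the median was 3. The fullest, chromosome 4 from 152 to 153 Mb, held 44 beside 86 wider peaks and 17 protein-coding genes, among them Chd5, a chromatin remodeler, Hes2, a basic helix-loop-helix repressor, and Espn, an actin-bundling protein of hair cells. Chromosome 7 from 19 to 20 Mb followed with 39, over the Apoe apolipoprotein cluster and Bcl3. Chromosome 10 from 80 to 81 Mb and chromosome 5 from 114 to 115 Mb held 36 each. The genes given for windows were chosen after their values were seen.

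The centre of 6654 of the 500 bp peaks lay in a protein-coding gene, 52.2% (51.4 to 53.1%), against 44.6% of wider peaks (44.0 to 45.2%). The share was higher in 500 bp peaks on 20 of 20 chromosomes. Other genes held 8.23% of 500 bp peaks and 8.55% of wider peaks, and 39.5% and 46.9% lay between genes. The excess changed with the tag count of the wider peaks. The 231 wider peaks with 9 to 11 tags, the quartile range of the 500 bp peaks, were centred in a protein-coding gene at a rate of 55.8% (49.2 to 62.4%, an interval that holds 52.2%). Set against them, all 500 bp peaks of any tag count differed by -3.61 percentage points. At 11 to 11.5 tags in both sets the shares were 49.9% (47.6 to 52.3%) in 500 bp peaks and 53.1% (48.8 to 57.5%) in wider peaks. Among peaks of 12 to 15 tags the shares were 55.4% (52.7 to 58.0%) in 1381 of the 500 bp peaks and 50.6% (49.2 to 52.0%) in 4940 wider peaks.

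Gene starts showed a different pattern. Within 2 kb of the start of a protein-coding gene lay 17.7% of 500 bp peaks (17.0 to 18.4%) and 16.7% of wider peaks (16.2 to 17.1%), and the share was higher in 500 bp peaks on 13 of 20 chromosomes. Where no strand was given, either end of a gene was counted as a start. At 12 to 15 tags, a range chosen after the data were seen, 31.5% of 500 bp peaks (29.1 to 34.0%) lay within 2 kb of a start, against 15.5% of wider peaks (14.5 to 16.6%), and the share was higher in 500 bp peaks on 20 of 20 chromosomes. The same tags are packed more densely in the narrower peaks, at a median of 26 tags per kb in 500 bp peaks and 19.7 tags per kb in wider peaks.

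Among the 500 bp peaks the share near starts climbed with the tag count up to 17.5 tags. It was 12.2% (11.3 to 13.03%) at 9 to 9.5 tags, 17.8% at 10 to 10.5 and 19.7% at 11 to 11.5. It went on to 25.4% at 12 to 12.5 tags, 33.9% at 13 to 14, 41.3% (37.0 to 45.7%) at 14.5 to 17.5 and 36.1% (28.8 to 44.0%) at 18 to 61. Wider peaks stood at 18.9% (9.44 to 32.0%, n = 53) at 10 to 10.5 tags, an interval that holds the value of the 500 bp peaks, and at 11.2 to 17.6% over the bins from 11 tags on. Control tags moved with this. The mean control of 500 bp peaks was 0.5 in the first of these bins and 3.09 in the last. Within 2 kb of a start, 55.1% of 500 bp peaks had control at the floor, against 75.2% of those over 50 kb from one. At 12 to 15 tags the mean control was 1.09 in 500 bp peaks and 0.703 in wider peaks, and the median fold was 8.21 and 17.11.

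Split by control tags, the share of 500 bp peaks near a start was 13.6% (12.9 to 14.4%) at the floor, 23.7% at 1 control tag, 39.3% at 1.5, 41.7% at 2 and 40.95% at 2.5 to 10. Wider peaks lay between 12.2 and 21.7% over the same bins. With control at the floor and 12 to 15 tags, 24.2% of 277 of the 500 bp peaks (19.3 to 29.7%) and 12.7% of 3205 wider peaks (11.6 to 13.9%) lay near a start. Over all tag counts at the floor the shares were 13.6% in 500 bp peaks and 12.2% in wider peaks. The part in the climb of control tags, and of the lowest tag count that goes with each, was not tested.

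Around starts with a known strand, 577 of the 500 bp peaks were centred in the 2 kb upstream and 1135 in the 2 kb downstream. The fullest bin, 0 to 0.5 kb downstream, held 632. Wider peaks leaned the same way, with 916 upstream, 2463 downstream and 1435 in that bin. At the far end of genes, 6.22% of 500 bp peaks and 5.87% of wider peaks lay within 2 kb. The median distance to a start was 20.03 kb in 500 bp peaks and 29.1 kb in wider peaks, and 31.3% and 40.2% lay over 50 kb away.

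**Figure D3:**
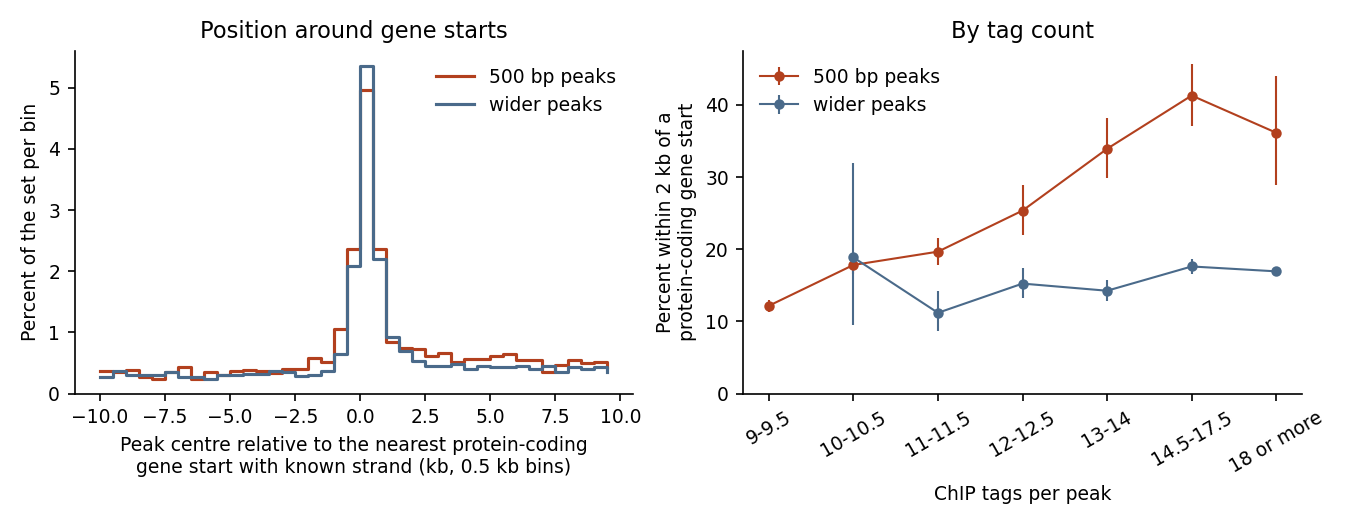
Left, percent of each set per 0.5 kb bin of distance from the peak centre to the nearest protein-coding gene start with known strand, negative values upstream; right, percent of peaks within 2 kb of a start by ChIP tags per peak, with exact 95% intervals. Both sets are fullest just downstream of the start, and the share of 500 bp peaks near a start reaches 41.3% at 14.5 to 17.5 tags while wider peaks stand at 18.9% at 10 to 10.5 tags with a wide interval and at 11.2 to 17.6% from 11 tags on.

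A gene start lay inside a 500 bp peak for 686 protein-coding genes (3.17% of 21631), in 666 peaks with a median of 10.5 tags, and inside a wider peak for 2582 (11.9%). Rbmxl2 had the most tags. Its peak at chr7:107209094-107209594 held 28 tags (18.6 to 40.5) and 1 control tag, a fold of 19.16. Tmem267 followed with 23 tags and Slc39a6, a zinc transporter gene on chromosome 18 whose strand was not given, with 22, each with 3 control tags. Foxd3 and Vgll3, a transcription cofactor gene, had 20.5 tags and 3 control tags each, and Wipf3 had 20.5 tags and 3.5 control tags. Lingo3 had 20 tags, and Lrp2, Mpc1 and Zranb2, an RNA-binding splicing regulator gene, had 19.5 each, with 2.5 or 3 control tags. The intervals of these counts overlapped from Rbmxl2 down to Zranb2, and the fold of the 9 others was 4.01 to 5.34.

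The 8 promoters printed above held 58.7 to 74.3% GC. Over the 572 with a strand and a start inside a 500 bp peak, the median GC content was 60.3% and the median number of CG dinucleotides was 18 (quartiles 11.75 and 24). The 2086 promoters with a start inside a wider peak had 61% and 18. The 15077 with a start in no peak had 55.3% and 12. These groups are counted by gene and overlap, as together they exceed the 17274 genes with a given strand. GGGCGG, the core of the GC box, was searched on both strands. Its own letters hold one CG, so its count is not independent of the CG count. It was present in 60.3% (56.2 to 64.3%) of promoters in 500 bp peaks, 60.6% of those in wider peaks, 44.5% of those in no peak and 46.9% of all promoters. TATAAA, on both strands, was present in 6.12% (4.30 to 8.41%), 7.91%, 14.3% and 13.4% of the same groups. Of the windows printed above, Wipf3 holds 4 copies of GGGCGG, Vgll3 3, Lrp2 2, Rbmxl2, Tmem267 and Mpc1 1 each, and Foxd3 and Lingo3 0, and none holds TATAAA. For both motifs, the share in promoters of wider peaks lay inside the interval of the share in promoters of 500 bp peaks.

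The next peak was about as near to a 500 bp peak as to a wider one. It lay within 10 kb, edge to edge, for 45.3% of 500 bp peaks (44.4 to 46.2%) and 45.4% of wider peaks (44.8 to 46.0%). The difference was -0.11 percentage points (-1.16 to 0.94, normal approximation). The median gap was 12.1 kb in 500 bp peaks and 12.6 kb in wider peaks. Very short gaps were rarer, with 6.07% of 500 bp peaks (5.66 to 6.50%) and 7.79% of wider peaks (7.47 to 8.12%) within 1 kb of the next peak. No gap was under 0.5 kb in either set. Merging of close signal into wider peaks limits the short gaps. The shares at short gaps thus cannot be told apart from the choice of members by width. The widest was 492 kb for a 500 bp peak and 663 kb for a wider peak. The next peak was wider than 500 bp for 65.5% of 500 bp peaks (64.7 to 66.3%) and 69.8% of wider peaks (69.3 to 70.4%), where 68.0% of all peaks were wider.

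**Figure D4:**
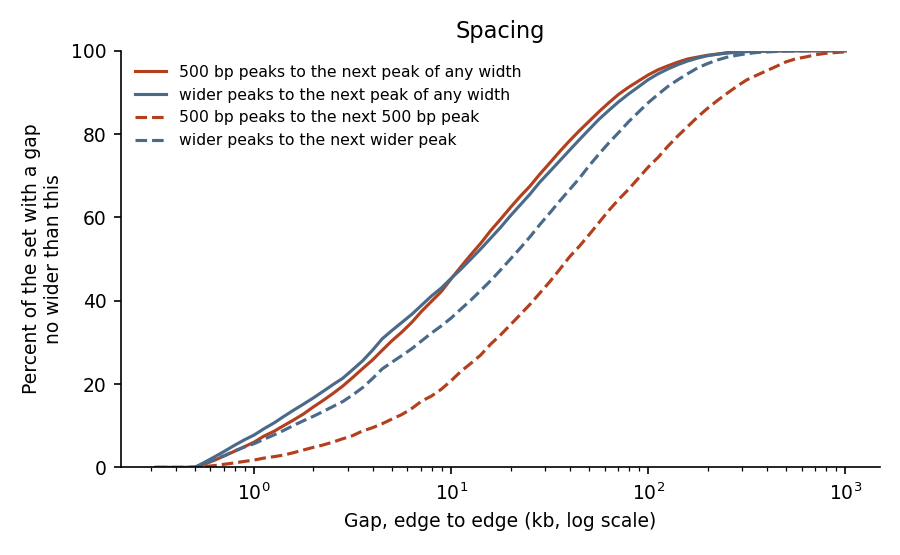
Cumulative percent of peaks against the edge-to-edge gap in kb on a log scale, to the next peak of any width (solid lines) and to the next peak of the same set (dashed lines), for 500 bp peaks and wider peaks. The solid lines nearly coincide, at 45.3% of 500 bp peaks and 45.4% of wider peaks at 10 kb, while the next 500 bp peak lies within 10 kb for 20.8%.

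The next 500 bp peak lay within 10 kb for 20.8% of members, at a median of 39.0 kb and at most 2079 kb. In peak order along a chromosome, 5527 of the 500 bp peaks (43.4%) had no other member beside them, and 132 runs held 5 or more in a row. The longest runs held 9. One, at chr8:111726067-111880497, ran for 154 kb over Bcar1, a focal adhesion adaptor gene, Cfdp1 and Tmem170, with 9 to 12 tags per peak. The other, at chr15:96086834-96693719, ran for 607 kb over a stretch that holds Arid2, a subunit of the PBAF remodeling complex, and the amino acid transporters Slc38a1 and Slc38a2. A run of 8 at chr2:27671392-27714457 was the tightest of the 10 longest, 43.1 kb at Rxra.

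Within its span or 5 kb of it, a 500 bp peak was present for 6337 of 21631 protein-coding genes, 29.3%, and a wider peak for 9496, 43.9%. The 500 bp peaks were the sole marked positions of 2555 genes (11.8%), which is 21.1% of the 12105 genes with any peak. The largest numbers were in long genes. Gse1, which encodes a subunit of a CoREST-type repressor complex, had 18 over its 353 kb, beside 33 wider peaks. Camta1, a calmodulin-binding transcription activator gene of 802 kb, had 16 beside 12. Tiam1, a Rac exchange factor gene, had 12 beside 30. Cdh13, an atypical cadherin gene, had 11 beside 16. Rxra, the retinoid X receptor alpha, had 11 in only 86.9 kb and just 2 wider peaks, the fewest among the 9 genes given here. Its tallest 500 bp peak, chr2:27676159-27676659, held 13.5 tags (7.29 to 22.9) and reached over the gene's left end. Rimbp2, Septin9 and Cmip had 10 each, and Dnah17, an axonemal dynein gene, had 9. In each of these 9 genes the lowest 500 bp peak held 9 tags, and the tallest held 10.5 to 15.

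Among all protein-coding genes, 29.3% had a 500 bp peak within 5 kb and 43.9% had a wider one. Among 20 crypt stem cell markers, 10 had a 500 bp peak within 5 kb and 14 had a wider one. The interval of the first share, 27.2 to 72.8%, holds the 29.3% of all protein-coding genes. Ephb2, a receptor that positions cells along the crypt, had 6, at 9, 9, 9.5, 9.5, 11 and 12 tags, all inside the gene. Lgr5 itself had 3. They held 11 tags at chr10:115452712-115453212, 10.5 at chr10:115459422-115459922 and 9.5 at chr10:115448613-115449113, the last outside the gene, and the 1 wider peak held 21. Msi1, an RNA-binding regulator of stem cells, had 3 of 9 to 9.5 tags. The tallest in the list stood in Sox9, with 19 tags (11.4 to 29.7) and 2.5 control tags. Rgmb had 1 of 14.5 tags, 0.928 kb downstream of a start. Olfm4 had no peak of either kind, and Ascl2, the transcription factor of stem cell identity, had 1 wider peak of 66 tags and no 500 bp peak.

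Markers of other gut cell types had a 500 bp peak in 12.5 to 38.9% of cases by list, beside 29.3% of all protein-coding genes. The interval of each of these lists holds 29.3%. Of 18 secretory lineage markers 7 had a 500 bp peak, the tallest 14.5 tags in Pou2f3, the tuft cell factor. Of 16 absorptive enterocyte markers 4 had one, among them Apoa4 with 12.5 tags. Of 14 mesenchymal and endothelial markers 4 had one, and of 16 immune cell markers 2, Cd4 and Cd14, with 9 tags each and outside the gene. A wider peak marked 8 secretory, 11 absorptive, 8 mesenchymal or endothelial and 4 immune genes, beside 43.9% of all protein-coding genes.

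Of 20 necroptosis and cell death genes, 11 had a 500 bp peak (31.5 to 76.9%) and 9 a wider one, and 7 had 500 bp peaks alone. Over all protein-coding genes these shares were 29.3%, 43.9% and 11.8%. Mlkl, the membrane-permeabilizing effector of necroptosis, had 1 of 10 tags (4.80 to 18.4) at chr8:111337690-111338190, 0.265 kb downstream of its start. Ripk3, the kinase that activates Mlkl, had 1 of 11.5 tags beyond its far end. Zbp1, the nucleic acid sensor upstream of Ripk3, had no 500 bp peak and 1 wider peak of 11.5 tags. The apoptosis effector Bax had 2, with 12 tags 0.276 kb downstream of its start and 10.5 tags outside the gene. The apoptosis inhibitor Bcl2 had 2, with 11 tags 0.512 kb downstream of a start and 10 tags further in. Bbc3, a BH3-only activator of apoptosis, had 1 of 13.5 tags, the tallest in the list. Every one of these counts has an interval that reaches under 9 tags, the lowest in the list.

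Of 25 genes of H3K9 methylation and silencing, 13 had a 500 bp peak (31.3 to 72.2%) and 13 a wider one. Over all protein-coding genes the shares were 29.3% and 43.9%. Setdb1 had neither kind of peak. Kdm4a, an H3K9 demethylase gene, had 3 of 9.5 to 11 tags, and Daxx, a histone chaperone gene, had 2 of 11.5 and 12 tags upstream of its start. Dnmt1, the maintenance DNA methyltransferase, had 11.5 tags 0.307 kb downstream of its start and 9 tags further in.

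Over all protein-coding genes, 43.9% had a wider peak, 29.3% a 500 bp peak and 11.8% 500 bp peaks alone. Imprinted genes, 5 of the 31 noncoding, had a wider peak in 29 cases, while 13 had a 500 bp peak and none had 500 bp peaks alone. Cdkn1c, a cell cycle inhibitor expressed from the maternal allele, had the tallest, 32.5 tags (22.3 to 45.8) with 5.5 control tags at chr7:143460516-143461016. Peg3 and Usp29, paternally expressed neighbours, shared 1 of 18.5 tags with 3 control tags. Dlk1 had 2, of 9 and 10.5 tags.

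Among 20 neuronal genes, most of them very long, 15 had a 500 bp peak and 17 a wider one. For this and the next lists, the shares of all protein-coding genes were 29.3% and 43.9%. Dlg2 and Csmd1, of 1973 and 1643 kb, had 5 each and Rbfox3 had 4. Of 39 Hox genes 19 had one, but neighbours share peaks and only 14 distinct peaks were involved. The tallest held 21 tags and 2 control tags in Hoxd11 and within 5 kb of Hoxd10. Of 57 clustered protocadherin genes 36 had one, from 11 distinct peaks, and 55 had a wider one. Of 63 canonical histone genes 7 had one, from 2 peaks, and 32 a wider one.

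Of 80 cytosolic ribosomal protein genes 30 had a 500 bp peak and 35 a wider one, 17 had 500 bp peaks alone, and 6 had their start inside one. Zinc finger genes taken by symbol had one in 95 of 367 cases and a wider one in 183. Zfp536 had 9, the most, and Zfp978 had one of 18 tags with 3 control tags, the highest count in the list. Receptor genes of the nose were seldom near one. Olfactory receptors had a 500 bp peak in 24 of 1106 cases (2.17%) and a wider one in 66, and vomeronasal receptors in 13 of 353 (3.68%) and 47. Over all protein-coding genes, 29.3% had a 500 bp peak, 43.9% a wider one and 11.8% 500 bp peaks alone. For 3.17% the start lay inside a 500 bp peak. The list shares stand beside these values. Gene length differs between the lists, and its part in the counts was not tested.

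**Figure D5:**
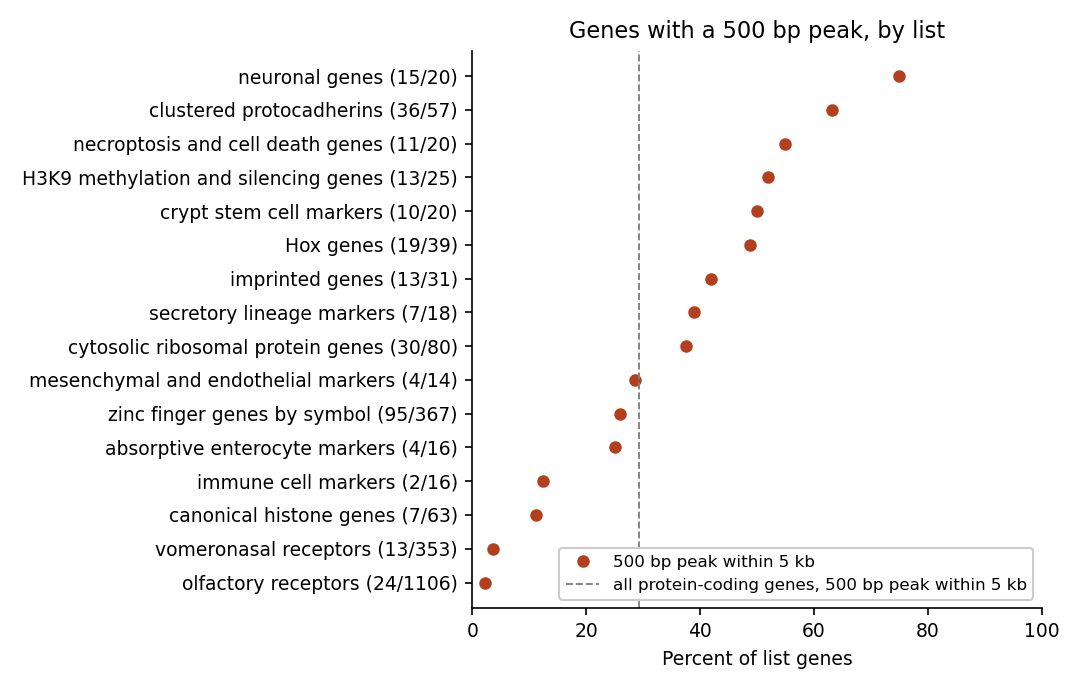
Percent of genes in each of 16 lists with a 500 bp peak within the gene or 5 kb of it, with the numbers in the labels and the share of all protein-coding genes, 29.3%, as a dashed line. Neuronal genes stand highest at 75% and olfactory receptors lowest at 2.17%, and genes of clustered families share peaks. Intervals are not drawn.

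A smaller share of noncoding genes than of protein-coding genes overlapped a 500 bp peak. One overlapped 8.69% of long noncoding RNA genes, 3.20% of pseudogenes and 0.490% of transfer RNA genes, against 22.8% of protein-coding gene spans. Wider peaks overlapped 15.1%, 7.36% and 3.92% of the same noncoding kinds. The kinds differ in gene length, and its part in these shares and in those of hairpins below was not tested. Of 1005 microRNA hairpins in RefSeq, 17 (1.69%) overlapped a 500 bp peak, in 15 peaks of 9 to 14 tags, and 57 (5.67%) a wider one. The mature sequences below come from 5 of these hairpins and were chosen after their values were seen. The seed, bases 2 to 8, is in capitals.
mmu-miR-26a-5p: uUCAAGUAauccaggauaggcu
mmu-miR-127-3p: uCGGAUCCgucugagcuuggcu
mmu-miR-499-5p: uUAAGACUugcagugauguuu
mmu-miR-193a-3p: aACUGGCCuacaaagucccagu
mmu-miR-193b-3p: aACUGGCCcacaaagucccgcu
Mir26a-1, on chromosome 9, had the tallest peak of the 15, 14 tags (7.65 to 23.5) with 1.5 control tags. Mir499, an intronic microRNA of a myosin gene, had 12.5 tags with 0.5 control tag. Mir127, an imprinted microRNA of chromosome 12, had 12 tags with 1 control tag. The microRNAs miR-193a-3p and miR-193b-3p share the seed ACUGGCC and come from hairpins on chromosomes 11 and 16, each under a 500 bp peak, of 10.5 and 9 tags.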

How the data were processed

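The authors deposited 1 peak list of the H3K9me3 ChIP library. The submitters' processing notes name Bowtie2 2.2.8, HOMER 4.10.1 and the builds GRCm38 and mm10. The columns are those of a HOMER peak file, per the file headers, with caller settings not given in the sources used here. Both deposited tag columns, normalized ChIP and control, are coverage signals. The deposited fold over control is a ratio of scaled ChIP tags to control tags, with none under 4. Each peak's deposited p-value was at most 8.32e-05 and was not used further. The deposited score is a value of the peak caller. Widths are in bp.

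Normalized values were whole multiples of the worth of 0.5 tag (100% within a tolerance of 0.1, 1 tag being worth 1.05), so tags per peak were recovered. The list scales ChIP tags by 0.684 in its fold. The library totals were not given, so depth is known only per peak.

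Gene spans came from a RefSeq table of GRCm38.p6, 49554 genes on these chromosomes, 21631 of them protein-coding. A RefSeq promoter table gave strand and start for 17274. For the other 4357 either end was used. A peak was placed by its centre, and a start lay in a peak when within it. Gaps ran from edge to edge to any other peak. Genes named were the 10 with most 500 bp peaks and the 10 with the tallest 500 bp peak over their start, without predicted genes, up to 3 per list, the 5 tallest peaks, and always Lgr5, Ascl2, Olfm4, Setdb1, Mlkl, Ripk3 and Zbp1. One gene that the rule took is not reported here. Genes outside this rule were chosen after their values were seen. The members and lists were chosen with earlier results of these data known. The calculations were tested on simulated data. Alternatives changed the control limit, fold, chromosomes, windows, overlap and the peaks compared with. Repeat classes and peak sequences were not analysed here. Python 3.11.15, pandas 2.3.3 and scipy 1.17.1 were used.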

Additional observations from a re-analysis of the deposited data

Results flagged for a closer look

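These values lie in data outside the comparisons. On chromosome Y, 21 of 86 peaks were 500 bp wide, with 9 to 72 ChIP tags and a median of 10. On unplaced scaffolds, 37 of 147 peaks were 500 bp wide, with 9 to 113 ChIP tags and a median of 11.5. On chromosomes 1 to 19 and X, 10 of 12749 peaks of 500 bp held more than 10 control tags, with 76 to 3165 ChIP tags and up to 524 control tags.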

How the results depend on the processing

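No paired analysis was possible because each group has 1 library. Of 69 values under other settings, 44 moved by less than their counting interval, 24 moved by more and 1 reversed. The next-peak difference, whose interval holds 0, also took the other sign under 4 settings. Among peaks of 12 to 15 tags and at the control floor, and with strand-known starts alone, settings chosen after the data were seen, and under the settings listed beforehand, the values that moved were these. The lowest chromosome share was 28.2% on autosomes. The share in protein-coding genes was 53.2% on autosomes, 53.5% with any overlap and 55.4% at 12 to 15 tags. The share near a start was 14.6% at a fold of at least 8, 13.7% within 1 kb, 26.0% within 5 kb, 13.4% with strand-known starts, 31.5% at 12 to 15 tags and 13.6% at the control floor. The next peak lay within 5 kb for 30.3% and within 50 kb for 83.0%, and the next 500 bp peak within 10 kb for 20.8%. The difference from wider peaks, in percentage points, was 7.66 for protein-coding genes. It was 6.05 against wider peaks of up to 1000 bp, 4.81 at 12 to 15 tags and 5.74 at the control floor, and it reversed to -3.61 against wider peaks within the quartiles of tags. Those wider peaks number 231, and the cause was not tested. For starts it was 1.02, and 2.95 within 5 kb, 5.99 against wider peaks within the quartiles of tags and 15.95 at 12 to 15 tags. For the next peak it was -0.11 within 10 kb, 0.14 with at most 5 control tags, -2.50 within 5 kb, 1.98 within 50 kb, 1.25 against wider peaks of up to 1000 bp, 1.13 against those within the quartiles of tags and -1.24 at 12 to 15 tags. Depth limits single peaks most, since a count of 9 tags has an interval of 4.12 to 17.1.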
